A study of Homo sapiens with 4 samples.

Results

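Glutathione is the main small thiol of the cell, and the 10 genes examined here make it, keep it reduced, break it down or attach it to other molecules. They were chosen by name and by these roles: GCLC, GCLM and GSS for synthesis, GSR for reduction, CHAC1 and GGT5 for breakdown, and GSTM3, GSTP1, GSTO1 and MGST1 as transferases. They are 10 of the 23228 gene symbols in the count files, and all 10 were among the 12706 genes with enough counts to be tested. The RNA was that of ES2, a human ovarian cancer cell line, with 2 libraries for each of 2 treatments. One group received vehicle, 0.1% DMSO, for 12 h, and the other received EC359, an inhibitor of the LIF receptor, at 10 nM for 12 h. The study describes the replicates as biologically independent, and all 4 libraries come from this 1 line, grown in RPMI medium with serum. RNA came from whole cultures, so a smaller share of cells that carry a transcript and less of that transcript per cell cannot be told apart.

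In its synthesis, glutamate-cysteine ligase joins glutamate to cysteine, and glutathione synthetase then adds glycine. Peroxidases spend reduced glutathione on hydroperoxides, glutathione reductase restores it with NADPH, and transferases couple it to reactive compounds or use it to reduce lipid peroxides. Breakdown starts either at the cell surface, by gamma-glutamyl transferases, or in the cytosol, by the CHAC enzymes. The peroxidase GPX4 is known to protect membranes against ferroptosis, a form of death by lipid peroxidation. The study sequenced these libraries to learn how EC359 lowers the viability of the cells, and went on to glutathione pathways and ferroptosis genes.

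The libraries held 25572494 to 31707553 counts on genes, of which the 10 genes took 0.109% to 0.113%. The biological coefficient of variation was 3.5%, a common value that edgeR fitted over all tested genes for variation beyond sampling. Keratin genes KRT7, KRT8 and KRT18 were counted at 556 or more in every library, and WT1 at 76 to 119. Other epithelial and ovarian carcinoma markers were at or near 0, with 0 to 2 counts of EPCAM, 0 to 1 of CDH1 and 0 of MUC16, while PAX8 had 24 to 41. The mesenchymal marker VIM had 135855 to 153104 counts. Leukocyte marker PTPRC and endothelial markers PECAM1 and VWF had at most 2 counts, but endothelial cadherin, CDH5, had 3118 to 3920. LIFR itself had 1326 to 1823 counts.

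With EC359, GCLC, GSR, CHAC1 and GGT5 had a higher mean, and GCLM, GSS and all 4 transferases had a lower mean. None of these 10 differences passed the study's threshold, an adjusted p under 0.01, in edgeR's quasi-likelihood test over all tested genes. The study applied its threshold with DESeq and reported more genes, so its calls need not be the same as these. At that threshold, 0.299% of all tested genes were called higher and 0.795% lower. At an adjusted p under 0.05, GGT5 was higher and GSTM3 lower, against 1.68% and 2.64% of all tested genes in these directions. Before adjustment, 4 of the 10 genes were higher (GCLC, GSR, CHAC1 and GGT5) and 4 lower (GCLM, GSS, GSTM3 and GSTP1) at p under 0.05, against 10.7% and 11% of all tested genes. Scaled by total counts alone, 4 were higher and 2 lower at this p, against 14.6% and 8.04% of all tested genes. Both EC359 libraries lay above both vehicle libraries for 4 of the 10 genes and below them for the other 6, and the same held for 26.1% and 25.4% of all tested genes. The genes were chosen with results of these libraries already known, so these counts describe them and are no independent evidence.

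**Figure D1:**
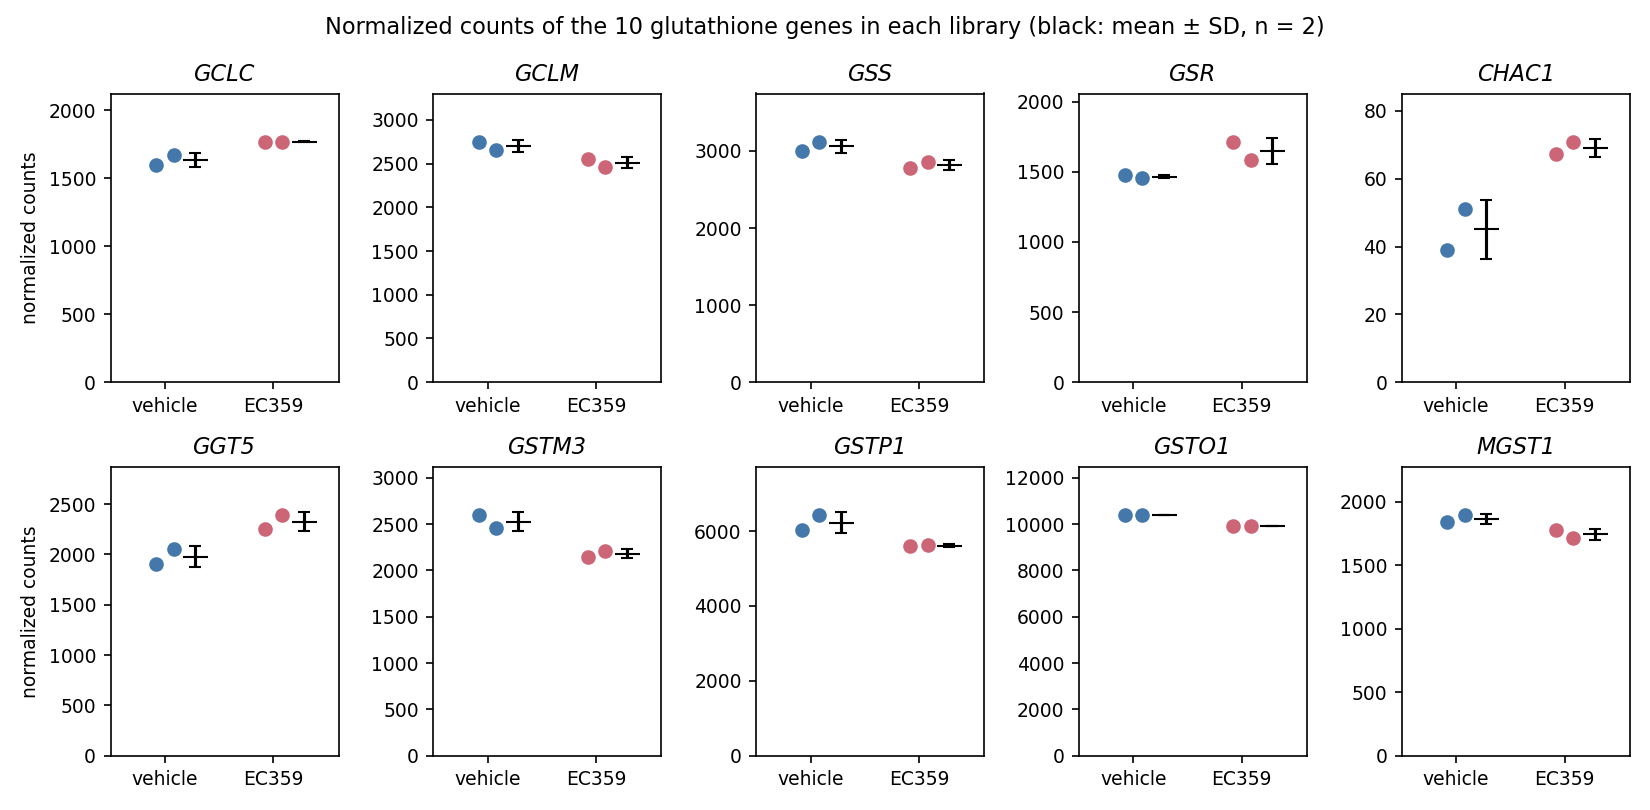
Normalized counts (vertical axes, from 0) of each gene in each vehicle and EC359 library, with the mean ± SD of 2 libraries in black. In each of the 10 panels the EC359 points lie wholly above or wholly below the vehicle points, and the gaps are small beside the level of the gene except for CHAC1.

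**Figure D2:**
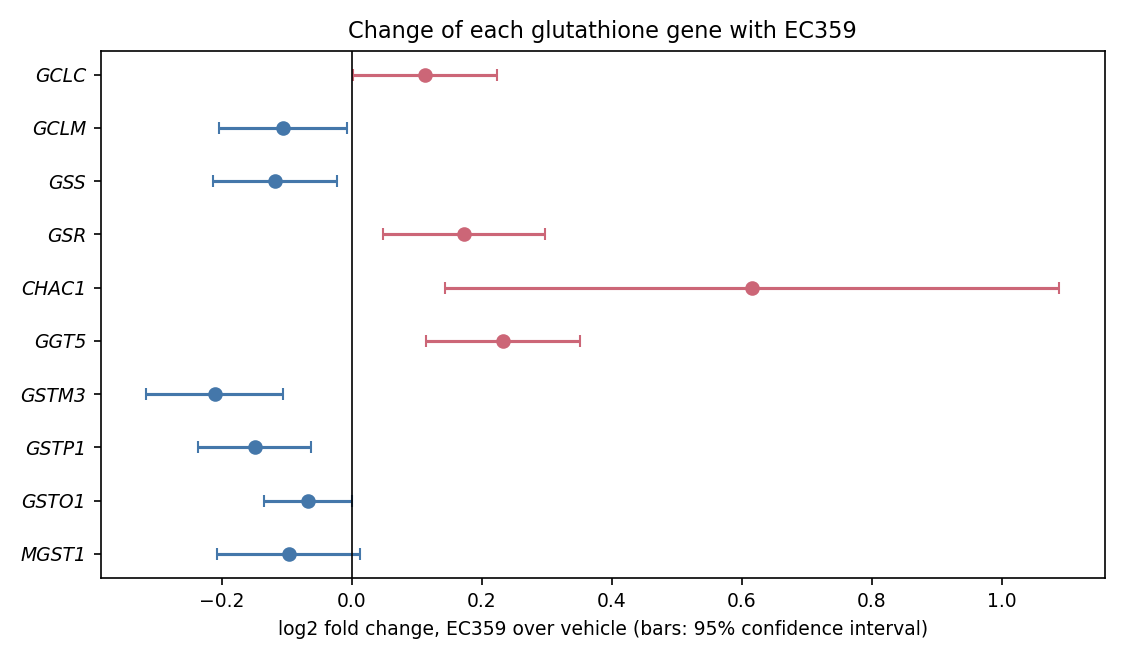
Log2 fold change of each gene, EC359 over vehicle (horizontal axis), with 95% confidence intervals from edgeR's quasi-likelihood model. GCLC, GSR, CHAC1 and GGT5 lie to the right of 0, and the intervals of GSTO1 and MGST1 include 0.

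The promoters of 5 genes are shown because several genes of glutathione metabolism are known targets of NRF2, which binds antioxidant response elements, and CHAC1 is a known target of ATF4, which binds C/EBP-ATF composite sites. RefSeq windows from 250 bases before to 50 bases after a transcription start (GRCh38.p14) matched 7 of the 10 genes, with 9 windows since MGST1 has 3 starts. The 250 bases before the start are printed 5′ to 3′ on the strand of the gene, and capitals mark the matches to the motifs that were searched on both strands. The windows are chr1:93909431-93909680 (minus strand) for GCLM, chr6:53545102-53545351 (minus strand) for GCLC, chr11:67583562-67583811 (plus strand) for GSTP1, chr10:104254642-104254891 (plus strand) for GSTO1 and chr15:40953221-40953470 (plus strand) for CHAC1.
GCLC: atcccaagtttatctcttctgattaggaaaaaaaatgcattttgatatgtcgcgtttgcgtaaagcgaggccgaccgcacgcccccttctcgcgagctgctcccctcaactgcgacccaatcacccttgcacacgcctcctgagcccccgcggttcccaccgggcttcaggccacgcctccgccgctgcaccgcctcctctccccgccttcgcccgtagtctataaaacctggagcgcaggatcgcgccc
GCLM: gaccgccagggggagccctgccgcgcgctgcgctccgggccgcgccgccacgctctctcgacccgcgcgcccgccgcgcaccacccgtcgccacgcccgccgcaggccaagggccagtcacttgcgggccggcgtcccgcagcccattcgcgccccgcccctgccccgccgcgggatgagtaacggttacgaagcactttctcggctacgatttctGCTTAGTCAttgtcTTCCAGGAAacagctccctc
GSTP1: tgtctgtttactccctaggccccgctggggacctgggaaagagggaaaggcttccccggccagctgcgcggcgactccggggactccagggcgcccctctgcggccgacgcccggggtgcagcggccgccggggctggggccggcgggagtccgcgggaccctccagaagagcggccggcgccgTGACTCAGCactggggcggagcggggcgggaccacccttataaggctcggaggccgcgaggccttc
GSTO1: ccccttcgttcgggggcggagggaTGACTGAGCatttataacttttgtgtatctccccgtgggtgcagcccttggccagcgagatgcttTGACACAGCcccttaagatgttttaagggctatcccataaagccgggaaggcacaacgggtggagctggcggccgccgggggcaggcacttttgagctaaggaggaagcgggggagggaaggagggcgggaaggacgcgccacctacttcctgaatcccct
CHAC1: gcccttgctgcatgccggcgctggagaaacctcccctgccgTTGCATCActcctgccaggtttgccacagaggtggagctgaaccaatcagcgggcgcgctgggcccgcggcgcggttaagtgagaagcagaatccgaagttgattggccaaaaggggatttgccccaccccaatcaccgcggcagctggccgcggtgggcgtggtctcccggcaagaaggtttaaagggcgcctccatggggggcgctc

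The antioxidant response element core, TGACNNNGC, was found in windows of GCLM, GSTP1, GSTO1 and MGST1, that is in 4 of the 9 windows, against 13.3% of 35116 promoter windows in the table. The GSTP1 match, TGACTCAGC, begins at position -66 from the start of transcription, and the GCLM match, TGACTAAGC on the opposite strand, at -34. In GSTO1 there were matches at -226 and -161. The core was absent from the windows of GCLC, CHAC1 and GSTM3. All 4 genes with the core in a window had a lower mean with EC359. Among genes whose windows lacked it, GSTM3 had a lower mean, and GCLC and CHAC1 had a higher mean. The MGST1 match was in 1 of its 3 windows, at position 31 past the start. Sites outside the windows were not searched, and GSS, GSR and GGT5 had no window. Whether the core bears on these directions was not tested. Of the 7 genes, CHAC1 alone had a match to TGATGNAA, the C/EBP-ATF composite site (at -209), which 3.62% of all windows hold. TTCNNNGAA, the STAT site, was in the windows of GCLM (at -20) and GSTM3 (at positions 7 and 19 past the start), against 7.66% of all windows. TGACGTCA, the cyclic AMP response element, was in none of the 9 windows and in 1.85% of all. These are matches of letters, and binding was not measured.

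**Figure D3:**
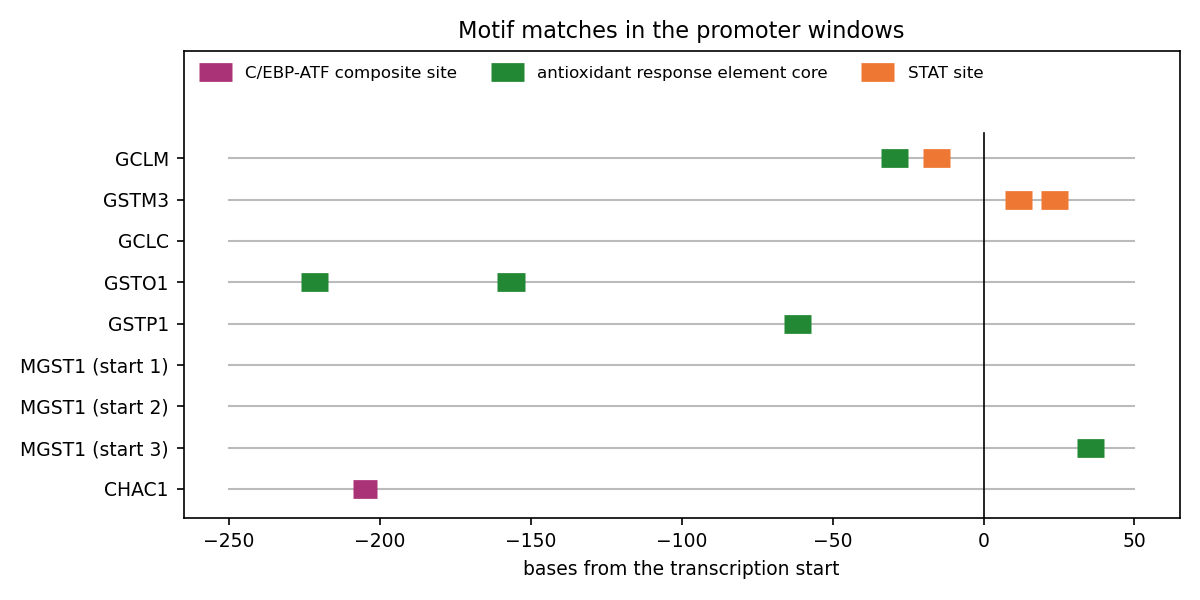
Matches to the 3 motifs found in the 9 promoter windows, by distance in bases from the transcription start (horizontal axis). Antioxidant response element cores lie in GCLM, GSTO1, GSTP1 and 1 of 3 MGST1 windows, and the C/EBP-ATF site in CHAC1.

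Among the synthesis genes, the subunits of glutamate-cysteine ligase went in opposite directions. GCLC (ENSG00000001084.13_18, chr6:53362139-53481768 of GRCh37, minus strand) encodes the catalytic subunit, which sets the rate of synthesis. Its normalized counts were 1602 and 1671 in the vehicle libraries and 1771 and 1767 in the EC359 libraries. The EC359 libraries were nearly equal and lay above both vehicle libraries. The log2 fold change was 0.11 (standard error 0.050, 95% confidence interval 0.00086 to 0.22, edgeR adjusted p = 0.228). GCLM (ENSG00000023909.10_8, chr1:94350755-94375012, minus strand) encodes the modifier subunit, which makes the enzyme more efficient and less open to inhibition by glutathione. The vehicle libraries held 2752 and 2657 normalized counts of it, and the EC359 libraries 2557 and 2466. All 4 values fell within a narrow range, with the EC359 libraries the lower. Here the log2 fold change was -0.11 (standard error 0.044, interval -0.21 to -0.0081, edgeR adjusted p = 0.198).

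The log2 ratio of GCLC to GCLM counts within a library needs no scaling between libraries. It was -0.78 and -0.67 with vehicle and -0.53 and -0.48 with EC359. The catalytic subunit thus had 0.606 counts for each count of the modifier with vehicle and 0.704 with EC359, and the groups did not overlap. With 2 libraries a group, an exact permutation test of such a ratio cannot give a p below 0.333, so none was made. The ratio was chosen after the values were seen.

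GSS (ENSG00000100983.12_15, chr20:33516235-33543830, minus strand) encodes glutathione synthetase, the enzyme of the last step. Its normalized counts were 2997 and 3121 with vehicle against 2773 and 2862 with EC359. The highest EC359 library was below the lowest vehicle library. The log2 fold change was -0.12 (standard error 0.043, interval -0.21 to -0.023, edgeR adjusted p = 0.145). Exons of GSS overlap those of MYH7B on the other strand, a gene with 0 to 2 counts in these libraries. GCLC overlaps the antisense gene GCLC-AS1 and GSTM3 overlaps an unnamed gene (ENSG00000241720) in the same way. GCLC also overlaps an unnamed gene on its own strand (ENSG00000231683). The levels of these RNAs are not known here. Without the strand setting of the counting, reads of the opposite-strand genes cannot be told apart from those of GCLC and GSTM3. For the gene on the strand of GCLC, no strand setting would separate reads of the shared exons. Summed over GCLC, GCLM and GSS, the total was 7400 ± 70.5 normalized counts in the vehicle group and 7097 ± 4.09 in the EC359 group (SD, n = 2).

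GSR (ENSG00000104687.14_14, on chromosome 8 of GRCh37 from 30535583 to 30585363, minus strand) encodes glutathione reductase, which returns oxidized glutathione to its reduced form. The vehicle libraries had 1475 and 1457 normalized counts, and the EC359 libraries had 1716 and 1586. Both EC359 libraries were higher, replicate 1 by more than replicate 2. The log2 fold change was 0.17 (standard error 0.056, interval 0.047 to 0.30, edgeR adjusted p = 0.109). It was 0.11 without EC359 replicate 1 and 0.23 without EC359 replicate 2.

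Both breakdown genes had higher normalized counts with EC359. CHAC1 (ENSG00000128965.13_9, chr15:41245160-41248710, plus strand) encodes a cytosolic cyclotransferase that splits glutathione into pyroglutamate and cysteinylglycine, and it is known as a gene of the stress response of the endoplasmic reticulum. It was the scarcest of the 10 genes, with raw counts of 35 and 46 with vehicle and 76 in each EC359 library. In normalized counts these were 38.9 and 51.2 with vehicle and 67.2 and 71.0 with EC359. CHAC1 had the widest difference of the 10 genes, and also the widest error, with a log2 fold change of 0.62 (standard error 0.21, interval 0.14 to 1.09, edgeR adjusted p = 0.128). The vehicle libraries differed from each other more than the EC359 libraries did. Without vehicle replicate 1 the log2 fold change was 0.43, and without vehicle replicate 2 it was 0.82. CHAC1 is among the genes that the study displayed from these same libraries, so its direction adds no independent evidence.

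GGT5 (ENSG00000099998.19_11, chr22:24615622-24641076, minus strand) encodes a cell surface gamma-glutamyl transferase known for its part in leukotriene conversion. Its normalized counts were 1906 and 2050 with vehicle, and 2257 and 2390 with EC359. The groups did not overlap, and the gap between them exceeded the gap between replicates. GGT5 was 17.5% higher with EC359, a log2 fold change of 0.23 (standard error 0.053, interval 0.11 to 0.35, edgeR adjusted p = 0.0374). By edgeR's exact test its adjusted p was 0.00351. With no filter on low counts, the adjusted p of edgeR's quasi-likelihood test rose above 0.05 (0.0629). The log2 fold change was 0.18 without vehicle replicate 1 and 0.28 without vehicle replicate 2. Without EC359 replicate 1 or 2 it was 0.27 or 0.19. Each of these fits kept only 1 library in a group, so only the effect size is given. Of the 50-base windows of its transcript, 9.67% occur in annotated transcripts of other genes, the highest share among the 10.

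All 4 transferases had lower normalized counts with EC359. GSTM3 (ENSG00000134202.12_9, chr1:110276554-110283660, minus strand) is a mu-class enzyme. Normalized counts of 2597 and 2456 in the vehicle libraries stood against 2150 and 2215 in the EC359 libraries. The groups lay apart by more than the replicates did, and GSTM3 was lower by the largest proportion of the 6 genes with a lower mean. The log2 fold change was -0.21 (standard error 0.047, interval -0.32 to -0.11, edgeR adjusted p = 0.0349). As for GGT5, the exact test of edgeR brought it past the threshold (adjusted p = 0.00353). With no filter, the adjusted p of edgeR's quasi-likelihood test was above 0.05 (0.0603). The log2 fold change was -0.17 without vehicle replicate 1 and -0.26 without vehicle replicate 2. Without EC359 replicate 1 or 2 it was -0.19 or -0.23. Of the 50-base windows of its transcript, 6.24% occur elsewhere.

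GSTP1 (ENSG00000084207.18_12, chr11:67351213-67354127, plus strand), the pi-class enzyme that is abundant in many tumors, reached 6026 and 6428 normalized counts in the vehicle libraries, and 5591 and 5638 in the EC359 libraries. The EC359 libraries were close together and below both vehicle libraries. The log2 fold change was -0.15 (standard error 0.039, interval -0.24 to -0.063, edgeR adjusted p = 0.0602). It was -0.19 without vehicle replicate 1 and -0.11 without vehicle replicate 2. Without EC359 replicate 1 or 2 it was -0.14 or -0.16.

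GSTO1 (ENSG00000148834.13_9, chr10:105995114-106027217, plus strand) is an omega-class enzyme with thiol transferase activity. Its normalized counts were 10384 and 10372 in the vehicle libraries against 9900 and 9908 in the EC359 libraries. The replicates were nearly equal, and the difference between treatments was the smallest of the 10 genes, with a log2 fold change of -0.067 (standard error 0.031, interval -0.14 to 0.00071, edgeR adjusted p = 0.235). MGST1 (ENSG00000008394.13_10, chr12:16500076-16762193, plus strand), a membrane-bound enzyme that also reduces lipid hydroperoxides, was at 1837 and 1894 normalized counts in the vehicle libraries and at 1775 and 1712 in the EC359 libraries. Its groups lay close, and the interval of its log2 fold change (-0.097, standard error 0.050) ran from -0.21 to 0.013 (edgeR adjusted p = 0.285).

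Summed over these 4 transferases, the normalized counts were 20846 and 21150 with vehicle and 19416 and 19472 with EC359, a total 7.4% lower. GSTO1 made up 39.1% and 39% of the counts on 25 transferase genes in the vehicle libraries and 39.9% and 40% in the EC359 libraries. GSTM3 made up 9.78% and 9.24% with vehicle and 8.68% and 8.95% with EC359. The total over the 25 genes, which include these 4, was lower by 6.8%. The 4 genes held most of it, with a vehicle mean of 21000 normalized counts against 26570 for all 25.

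For a comparison between genes, normalized counts were divided by the length of the canonical transcript in kilobases. GSTO1 was the most abundant at 12765 ± 11 per kilobase with vehicle, followed by GSTP1 at 8404 ± 384, MGST1 at 2017 ± 43.3, GSS at 1602 ± 46.2 and GGT5 at 815 ± 41.8 (SD, n = 2). These ranks were the same in all 4 libraries, and CHAC1 was the lowest in each, at 29.6 ± 5.71 with vehicle. Between them, GSTM3 (613 ± 24.3), GCLM (554 ± 13.7), GSR (483 ± 4.28) and GCLC (432 ± 13.0) did not overlap with vehicle. With EC359, the values of GSR (544 ± 30.2), GSTM3 (529 ± 11.1) and GCLM (514 ± 13.2) overlapped, and GCLC (467 ± 0.752) stayed the lowest of these 4. The levels depend on which transcript is counted and take no account of other isoforms.

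**Figure D4:**
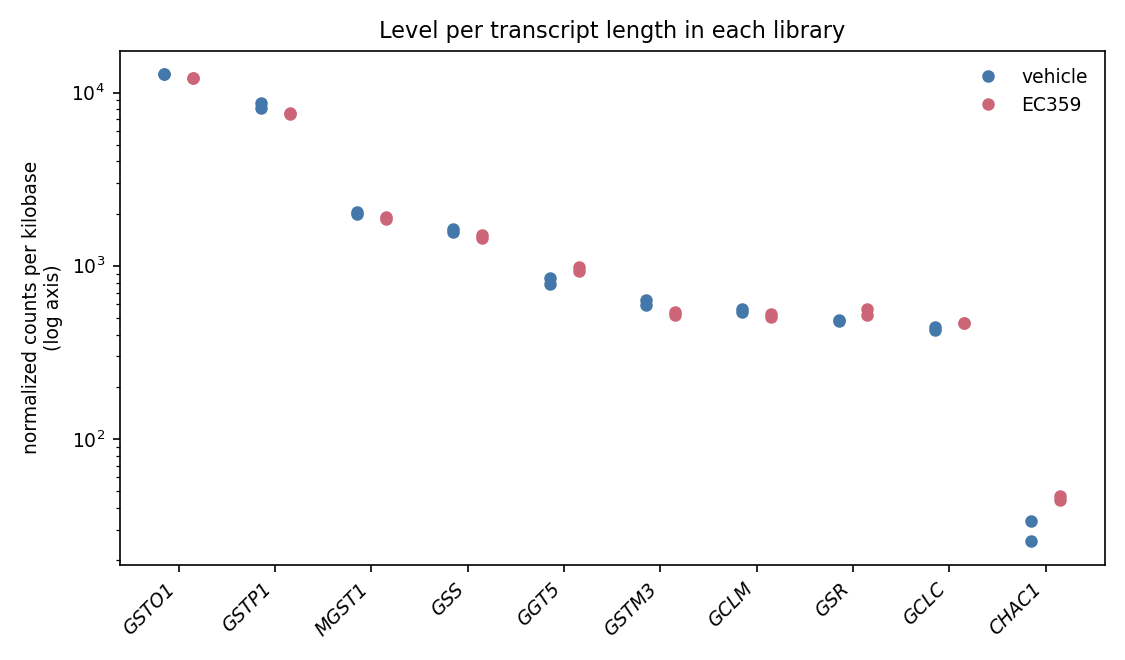
Normalized counts per kilobase of canonical transcript (log axis) of each gene in each library, ordered by the vehicle mean. GSTO1 and GSTP1 stand above the rest, CHAC1 far below, and GSTM3, GCLM, GSR and GCLC lie close together.

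The other genes of glutathione metabolism were examined by list. Over all tested genes the median log2 fold change was 0.0029, and over the 10 genes it was -0.083. Of 21 other transferases 10 were tested, with a median of -0.051, 6 of them lower in mean and 4 higher. None was called, and 1 was lower at an unadjusted p under 0.05 by edgeR. This was MGST3, a membrane-bound relative of MGST1 (log2 fold change -0.18, edgeR adjusted p = 0.0772), followed by GSTK1, a mitochondrial and peroxisomal enzyme (-0.076, edgeR adjusted p = 0.391). GSTA1, GSTA2, GSTA3, GSTA5, GSTM5, GSTT2B, HPGDS and LTC4S were listed at 0 counts in every library, and GSTM1 had 1 to 3. A count of 0 does not exclude a low level of the transcript.

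Of 14 other breakdown genes 7 were tested, with a median of -0.012. ANPEP, the surface aminopeptidase N that can split cysteinylglycine, was called lower, from a vehicle mean of 7988 ± 282 normalized counts to an EC359 mean of 6754 ± 1.21 (SD, n = 2), which is a log2 fold change of -0.24 (standard error 0.036, edgeR adjusted p = 0.00634). CHAC2, the constitutive relative of CHAC1, had a log2 fold change of 0.17 (edgeR adjusted p = 0.16). In this list 1 gene was higher and 2 were lower at an unadjusted p under 0.05.

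Cysteine supply is the usual limit of glutathione synthesis. All 7 genes of this list were tested, with a median of 0.10, and 1 was called. This was SLC7A11, the cystine importer, which was higher with EC359 in both libraries (log2 fold change 0.43, standard error 0.062, edgeR adjusted p = 0.0055). SLC1A1, a glutamate transporter that also carries cysteine, averaged 265 ± 0.572 normalized counts in the vehicle group and 181 ± 10.4 in the EC359 group (log2 fold change -0.55, standard error 0.11, edgeR adjusted p = 0.0217), and was not called. In the list, 3 genes were higher and 1 lower at an unadjusted p under 0.05.

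Of 8 peroxidase genes 4 were tested and none was called, with a median of 0.089 and 1 gene higher at an unadjusted p under 0.05 by edgeR. GPX1, the abundant cytosolic peroxidase, had a log2 fold change of 0.17 (edgeR adjusted p = 0.194) with overlapping groups. GPX4, which reduces lipid hydroperoxides in membranes, averaged 3447 ± 382 normalized counts in the vehicle group and 3520 ± 41.8 in the EC359 group, and the interval of its log2 fold change ran from -0.11 to 0.17 (edgeR adjusted p = 0.827). The 8 glutaredoxins and other users of glutathione had a median of -0.057, with none called and 2 lower at an unadjusted p under 0.05 by edgeR. These were GLO1, the glyoxalase that acts on glutathione adducts (-0.098, edgeR adjusted p = 0.0885), and GLRX, which removes glutathione from proteins (-0.14, edgeR adjusted p = 0.162).

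The 8 transport genes had a median of 0.022 and none was called, with 2 higher and 1 lower at an unadjusted p under 0.05 by edgeR. SLC25A40, a relative of the mitochondrial glutathione importer SLC25A39, came closest, from 792 ± 24.5 normalized counts in the vehicle group to 1013 ± 1.62 in the EC359 group (log2 fold change 0.36, standard error 0.062, edgeR adjusted p = 0.0127). ABCC2, an exporter of glutathione conjugates, had a log2 fold change of 0.31 (edgeR adjusted p = 0.192). Of the 9 regulators, with a median of 0.021, ATF3, a stress-induced transcription factor, was called higher (log2 fold change 0.84, standard error 0.12, edgeR adjusted p = 0.0055). ATF4, the activator of CHAC1, had a log2 fold change of -0.21 (edgeR adjusted p = 0.0177) and was not called. NFE2L2, which encodes NRF2, had a log2 fold change of 0.021 (standard error 0.040, edgeR adjusted p = 0.811). These are RNA values, and NRF2 protein was not measured in these libraries. At an unadjusted p under 0.05, 2 regulators were higher and 2 lower. ATF3, ATF4 and SLC7A11, like CHAC1, are among the genes the study displayed from these libraries.

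**Figure D5:**
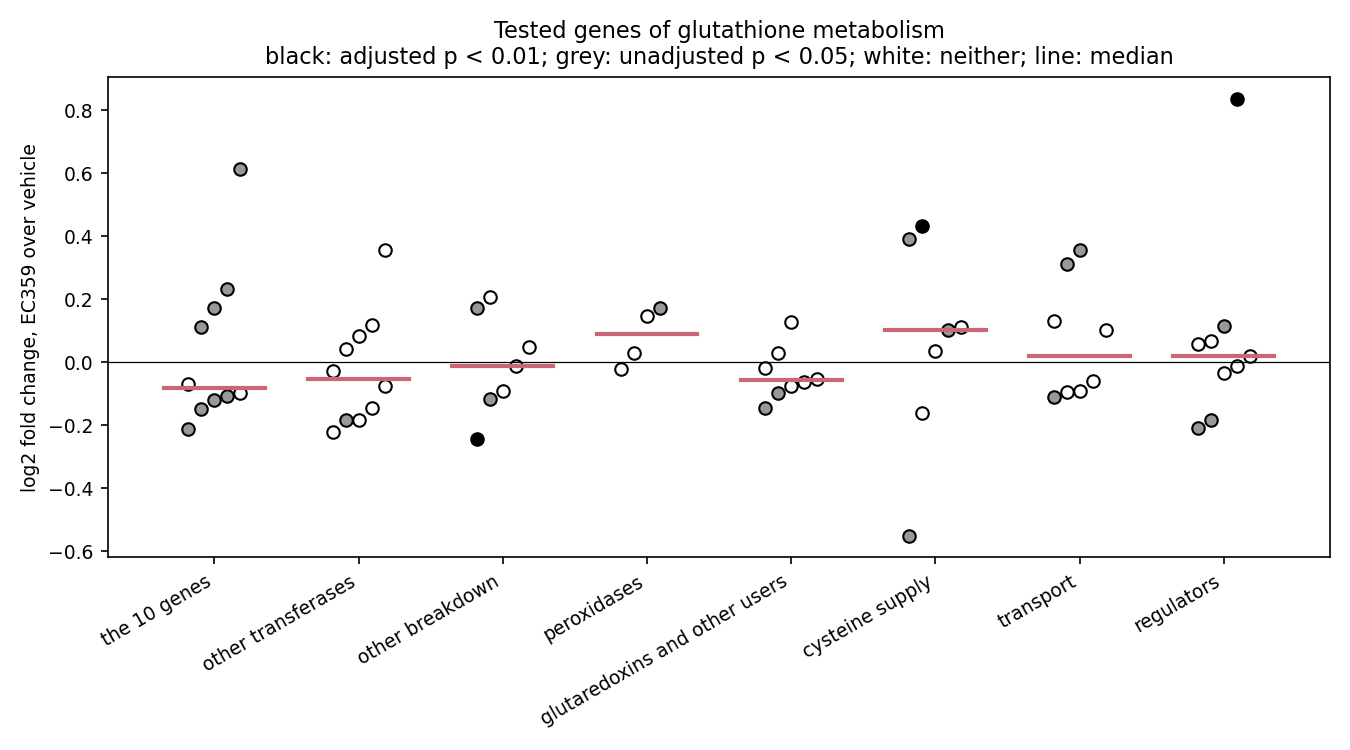
Log2 fold change (vertical axis), EC359 over vehicle, of every tested gene of each list, with the median as a line; black points passed an adjusted p of 0.01, grey points an unadjusted p of 0.05. The called genes are ANPEP (breakdown), SLC7A11 (cysteine supply) and ATF3 (regulators), and none of the 10 genes is black.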

How the data were processed

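Total RNA from ES2 cells was sequenced as single-end reads from poly(A)-selected, strand-marked libraries. The authors used TopHat2 for alignment to hg19, then HTSeq for read counts over NCBI RefSeq genes. The submitters' processing notes give TopHat2 2.0.8b and CASAVA 1.8.2. The strand setting of the counting is not given in the sources used here, so reads of overlapping genes on opposite strands may be mixed. What they deposited is an unnormalized count for each gene symbol, in 1 file per library.

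Summary lines that name no gene were left out. Reads on no gene were 10.95% to 12.05% and ambiguous reads 0.852% to 0.879% of the sum of reads on genes, on no gene and ambiguous. All 4 libraries entered 1 fit in edgeR 4.0.16 (R 4.3.3), with filterByExpr (minimum count 10, minimum total 15), TMM factors, the quasi-likelihood test and Benjamini-Hochberg adjustment over 12706 genes. Counts were normalized to the mean of the effective library sizes. Standard errors are the log2 fold change over the root of F. With 2 libraries a group, the p-values borrow spread across genes (prior degrees of freedom 8.28). The replicates differed by more than sampling noise (chi-square per degree of freedom 3.81 and 2.72), so each was counted as 1 sample. The script was checked on simulated counts.

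Places, canonical transcripts and 50-base windows came from GENCODE v44 lifted to GRCh37, the assembly of hg19. Promoter windows came from RefSeq on GRCh38.p14 and were joined by symbol only. Alternatives were DESeq2 1.42.0, limma voom (limma 3.58.1), the exact test of edgeR, scaling by upper quartile, RLE or total counts, 2 other filters, a replicate block, an adjusted p of 0.05, leaving out each library, and, added after the data were seen, removal of the GC or length trend. The genes, the lists and the alternatives were chosen with earlier results of these data known. Named beside the 10 genes are those of a list that were called, and the 2 of each list with the lowest p. NFE2L2 was added because the promoter search concerned NRF2.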

Additional observations from a re-analysis of the deposited data

How the results depend on the processing

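All 10 genes kept the sign of their log2 fold change in each of the 15 alternative fits. At an adjusted p under 0.01, where none was called higher or lower, 1 was called higher (GGT5) and 1 lower (GSTM3) with edgeR's exact test (1.83% and 2.59% of all tested genes), and likewise at an adjusted p under 0.05 (1.68% and 2.64%). With the GC trend removed, an alternative chosen after seeing the data, 1 was higher (GGT5) and 3 lower (GCLM, GSTM3 and GSTP1), where 3.25% and 7.61% of all tested genes were called, against 0.299% and 0.795% in the reported fit. Leaving out a library kept only 1 in its group, which was then assumed to vary like the other group. For those fits only the log2 fold changes are given. The 4 higher and 4 lower genes at an unadjusted p under 0.05 became 2 and 2 with DESeq2 (3.86% and 5.17% of all genes). With total counts only they became 4 and 2 (14.6% and 8.04%). They became 4 and 5 with limma voom (10.6% and 11.1%), 4 and 6 with the replicate block (16.1% and 15.5%) and 4 and 6 with the GC trend removed (12% and 19.5%). With RLE factors (10.5% and 11.1%) and with no filter (8.01% and 8.51%) they became 3 and 4, since GCLC no longer passed. The same 3 and 4 passed with edgeR's exact test (10.9% and 10.7%) and with the length trend removed (8.59% and 14%). The cause of these changes was not tested. Both counts of calls were 0 with RLE factors, upper-quartile factors, total counts only, either other filter, DESeq2, limma voom and the length trend removed. The GC and length fits tested 10816 genes. The libraries share replicate numbers, and neither labels nor methods tie a number to a batch. With the replicate block, 2 genes were called higher (GSR and GGT5) and 2 lower (GSTM3 and GSTP1), and 5.45% and 6.67% of all tested genes were called. The deviations of vehicle replicate 1 and EC359 replicate 1 from their group means correlated at 0.415 across 9122 genes, which are not independent replicates. The log2 fold change of CHAC1 ran from 0.43 to 0.82 over the alternatives, and that of GSTO1 from -0.074 to -0.030.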
